A study of Mus musculus with 4 samples.

Results

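The chromatin around 8 genes of fatty acid synthesis was examined peak by peak in inguinal white adipose tissue (iWAT) of mice kept in the cold or given CL-316,243 (CL), an agonist of the β3-adrenergic receptor. The genes were Acly, Acaca, Acacb, Fasn, Scd1, Elovl6, Acss2 and Me1, and every accessible region (peak) overlapping the gene body or the 50 kb on either side of it was taken (mm10). These windows held 286 of the 189598 peaks of the study, namely 22 for Acly, 54 for Acaca, 44 for Acacb, 21 for Fasn, 30 for Scd1, 49 for Elovl6, 29 for Acss2 and 37 for Me1. Of these, 16 overlapped the 2 kb on either side of the gene start and are called promoter peaks. The other 270 are called distal peaks, wherever in or around the gene they lie, and 17 of the 286 also lay at the start of another gene.

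Fatty acids are built from acetyl-CoA in the cytosol. ATP citrate lyase (Acly) cleaves citrate to acetyl-CoA, and acetyl-CoA synthetase (Acss2) makes it from acetate. Acetyl-CoA carboxylase 1 (Acaca) turns it into malonyl-CoA for chain building, while the product of carboxylase 2 (Acacb), made at the mitochondrion, restrains fatty acid oxidation. Fatty acid synthase (Fasn) assembles palmitate with NADPH that malic enzyme (Me1) helps to supply, Elovl6 lengthens palmitate to stearate, and stearoyl-CoA desaturase 1 (Scd1) introduces the double bond of monounsaturated fatty acids. In brown and beige fat these enzymes are known to be induced by prolonged adrenergic stimulation while stored fat is being burned. Accessibility is not expression: a peak shows where the transposase could insert, and neither RNA nor protein was measured here.

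The mice were C57BL/6 males aged 8 weeks, with no transgene or deletion. The day 0 group stayed at room temperature (22 °C), the cold groups were moved to 6.5 °C for 1, 3 or 7 days, and the CL groups received 1 mg/kg CL for 1, 3 or 7 days, which makes 7 groups of 3 mice. Single-nucleus ATAC-seq of their iWAT gave 32552 nuclei, which the authors annotated to mouse and to 12 cell types. The counts of white adipocyte nuclei (5935 in 21 mice) and of beige adipocyte nuclei (1069) were summed per mouse, because nuclei of a mouse are not replicates.

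White adipocyte sums held 23 to 847 nuclei and 44198 to 3655538 counts (median 741993), and beige sums of at least 10 nuclei, which 19 mice had, held 19550 to 717044 counts (median 137355). The smallest white sum, 23 nuclei, was that of mouse 1 of CL day 1, and that group kept 1 mouse in beige. Ucp1, the uncoupling protein of thermogenic fat, averaged 43.8 CPM (counts scaled to a common library total) among beige nuclei and 4.40 CPM among white ones. Adipoq, the adipokine gene, averaged 101 and 121 CPM, but also 79.1 CPM in CD4 T cells, so it separated the types poorly. Each adipocyte marker examined (Adipoq, Pparg, Plin1, Cidec, Lipe, Fabp4 and Lep) had its highest mean in the white or the beige annotation. Barcodes were shared with another mouse for 8739 nuclei (26.8%). All 4824 pairs joined mice of different days with the same treatment and replicate number, and 21.5% of pairs had the same cell type label where the cell type shares give 20.7%. If each day was run apart, day and run cannot be told apart.

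Short stretches of 5 peaks described further below are shown here, because they differ in how they responded. Each line gives the middle 200 bases of the peak on the plus strand of mm10 (GRCm38). Capitals mark the NF-Y box CCAAT and the nuclear receptor motif AGGTCA on either strand. The first lies 22.4 kb downstream of the Acly start, the next 59.5 kb downstream of the Elovl6 start, then follow an intronic Scd1 promoter peak, a peak 30.3 kb upstream of Scd1 and the Fasn promoter peak that passed the filter.
Acly peak, chr11:100505529-100505728: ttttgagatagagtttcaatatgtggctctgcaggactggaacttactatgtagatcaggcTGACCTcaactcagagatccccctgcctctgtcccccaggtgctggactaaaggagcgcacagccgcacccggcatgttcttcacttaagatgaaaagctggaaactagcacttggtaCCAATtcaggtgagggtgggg
Elovl6 peak, chr3:129591712-129591911: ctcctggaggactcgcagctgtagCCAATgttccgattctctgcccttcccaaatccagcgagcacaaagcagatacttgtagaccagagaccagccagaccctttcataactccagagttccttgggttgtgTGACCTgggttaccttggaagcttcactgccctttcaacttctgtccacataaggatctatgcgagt
Scd1 promoter peak, chr19:44405554-44405753: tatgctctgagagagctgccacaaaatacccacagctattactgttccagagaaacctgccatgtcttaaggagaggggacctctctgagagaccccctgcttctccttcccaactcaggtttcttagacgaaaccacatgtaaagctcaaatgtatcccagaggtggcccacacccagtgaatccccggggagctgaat
Scd1 upstream peak, chr19:44438077-44438276: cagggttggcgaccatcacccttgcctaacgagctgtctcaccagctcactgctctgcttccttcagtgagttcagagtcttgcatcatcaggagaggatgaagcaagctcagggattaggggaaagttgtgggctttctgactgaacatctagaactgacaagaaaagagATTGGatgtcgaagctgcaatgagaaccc
Fasn promoter peak, chr11:120822322-120822521: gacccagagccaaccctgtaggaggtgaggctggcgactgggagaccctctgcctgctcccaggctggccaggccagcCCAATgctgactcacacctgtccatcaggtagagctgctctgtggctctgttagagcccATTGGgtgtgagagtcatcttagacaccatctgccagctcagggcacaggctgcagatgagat
Searched in the middle 200 bases on both strands, CCAAT was found in 27.3% of the 286 peaks and 24.2% of all peaks, and AGGTCA in 18.5% and 15.1%. The E-box CACGTG was found in 5.24% against 3.74%, the sterol element TCACCCCAC in 0.699% against 0.323%, the ESRR motif TCAAGGTCA (which holds AGGTCA) in 0.699% against 0.424%, and the C/EBP motif TTGCGCAA in 0.35% against 0.111%. These shares are descriptions and were not tested.

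In white adipocytes the distal peaks, summed per gene, became more accessible for Acaca, Acly, Elovl6, Me1 and Acss2, to the greatest extent after 3 days of CL or 7 days of cold. The distal sums of Scd1 fell on days 1 and 7 of CL, Acacb rose by a small amount at CL day 3, and those of Fasn passed the test in none of the 6 comparisons. Against day 0, 2 genes rose at cold day 1, 2 at cold day 3, 5 at cold day 7, 3 at CL day 1, 6 at CL day 3 and 3 at CL day 7, which is 21 higher calls and 2 lower calls in 48 tests. Over all 17788 genes tested, 2.83% of tests were called higher and 3.05% lower (edgeR quasi-likelihood test, Benjamini-Hochberg adjusted p under 0.05). The median log2 fold change of the 8 genes was 0.84 at CL day 3 and 0.76 at cold day 7, where the medians over all genes were -0.0048 and -0.0029. The paper had already reported that lipogenic genes, most of these among them, gained accessibility in the same nuclei. It also reported that their timing differed between the stimuli. In cold the rise was gradual over days 1 to 7, and in CL it was strong at day 3. The 8 genes were chosen with such results known. Their excess over all genes, here and at promoters and single peaks below, is therefore description and no independent support. DESeq2, another count test, called 11 higher and 1 lower. Scaled by the library sizes of the peak table in place of the distal table, the same test called 19 higher and 1 lower. Over all genes the share of calls that were higher then went from 54.0 to 81.6% at CL day 3, 49.3 to 80.7% at cold day 3, 48.5 to 79.5% at CL day 7, 44.1 to 57.3% at cold day 7, 42.9 to 59.1% at CL day 1 and 40.0 to 53.3% at cold day 1.

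Acaca, the first committed enzyme, was higher in every treated group. Its distal sums were 145, 144 and 153 CPM in the day 0 mice (CPM over all distal sums). After cold they were 168, 253 and 218 CPM on day 1, 213, 207 and 189 CPM on day 3 and 331, 291 and 227 CPM on day 7. After CL they were 127, 215 and 207 CPM on day 1, 342, 391 and 276 CPM on day 3 and 227, 200 and 215 CPM on day 7. Every treated mouse lay above all day 0 mice except mouse 1 of CL day 1, the library of 23 nuclei. The log2 fold change was 1.18 ± 0.12 (SE) at CL day 3 (adjusted p = 3.6e-11), 0.91 ± 0.12 at cold day 7 (adjusted p = 1.3e-06) and 0.46 to 0.54 in the other 4 comparisons.

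Acly, which supplies the acetyl-CoA, had distal sums of 75.4, 65.1 and 76.5 CPM at day 0. They were 82.3, 151 and 95.5 CPM at cold day 1, 133, 128 and 96.5 CPM at cold day 3 and 186, 124 and 109 CPM at cold day 7. With CL they were 63.4, 75.7 and 98.0 CPM on day 1, 260, 198 and 141 CPM on day 3 and 161, 115 and 105 CPM on day 7. All groups but CL day 1 lay apart from day 0. The rise passed the test at cold day 3 (log2 0.72 ± 0.17), cold day 7 (0.90 ± 0.18), CL day 3 (1.35 ± 0.16, adjusted p = 2.2e-08) and CL day 7 (0.87 ± 0.17).

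Me1 and Acss2, which supply NADPH and acetyl-CoA, followed with rises already on day 1 of CL. The Me1 distal sums were 108, 96.2 and 102 CPM at day 0, 116, 170 and 167 CPM at CL day 1, 179, 210 and 151 CPM at CL day 3 and 287, 160 and 173 CPM at cold day 7. Their log2 fold change was 0.69 ± 0.16, 0.82 ± 0.13 and 1.01 ± 0.13 in that order, and 0.58 ± 0.14 at cold day 1. The Acss2 distal sums were 72.7, 60.8 and 59.8 CPM at day 0, 95.1, 116 and 95.6 CPM at CL day 1 and 105, 127 and 111 CPM at CL day 3. All mice of both CL groups lay above all day 0 mice, and the CL groups overlapped each other. Acss2 rose by log2 0.64 ± 0.16 at CL day 1, 0.88 ± 0.13 at CL day 3 (adjusted p = 2.7e-06) and 0.62 ± 0.15 at cold day 7. Elovl6, the elongase, went from 72.7, 49.5 and 65.8 CPM at day 0 to 184, 98.2 and 95 CPM at cold day 7 and 154, 120 and 99.1 CPM at CL day 3. Its log2 fold change was 0.94 ± 0.16, 0.86 ± 0.15 and, at CL day 7, 0.85 ± 0.15, and cold day 3 gave 0.17 ± 0.16, which did not pass.

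For Fasn and Acacb the values were smaller. Fasn distal sums were 169, 156 and 169 CPM at day 0, 188, 227 and 173 CPM at cold day 7 and 212, 197 and 169 CPM at CL day 3, and the log2 fold changes ran from -0.18 to 0.25. Acacb distal sums were 173, 209 and 199 CPM at day 0 and 288, 243 and 216 CPM at CL day 3, a log2 fold change of 0.33 ± 0.11 (adjusted p = 0.041). The Acacb call was lost when beige nuclei were added, with windows of 20 kb and without any of 4 mice in turn. Mouse 1 of cold day 7 had the highest distal sum of its group for 7 of the 8 genes. Without mouse 3 of day 0 the higher calls went from 21 to 13.

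**Figure D1:**
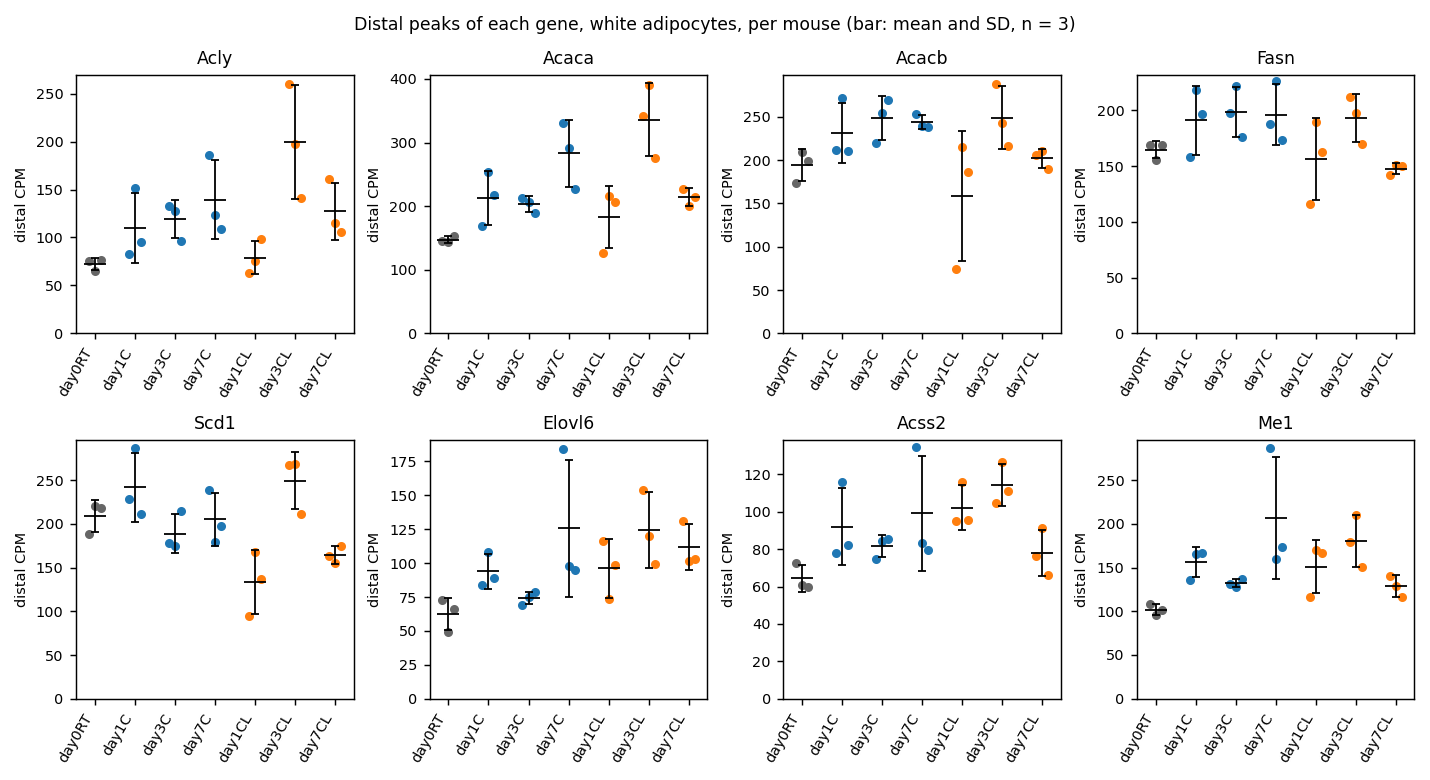
Distal sums of each gene in white adipocytes, in CPM over all distal sums (y axis, from 0), by group (x axis). Each point is a mouse and bars show the mean and SD of 3 mice; the Acaca points of day 0 lie between 144 and 153, below every treated mouse but mouse 1 of CL day 1 at 127.

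Other cell types give part of any nuclear sum, and marker genes measured in the same white adipocyte sums moved with some groups. The summed level of 6 beige markers averaged 178 CPM at day 0 (148 to 200) and 200 to 273 CPM in the treated groups. The smooth muscle list averaged 110 CPM at day 0 and 148 CPM at CL day 3, the B cell list of 5 genes fell from 106 CPM (91.5 to 132) at day 0 to 54.1 CPM (45.3 to 59.95) at CL day 1, and the adipocyte list averaged 1811 CPM at day 0, 2049 CPM at cold day 1 and 1500 to 1587 CPM in the other groups. None of the 5 B cell markers was at 0 in white adipocytes, where Pax5 had the most (61.1 CPM). Their part in the results was not tested.

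At the promoters the desaturase, the synthase, the elongase and the citrate lyase rose in at least 1 comparison. Of 48 tests against day 0, 7 were called higher and none lower, where 0.235% of tests over all 10366 promoters were called higher and 0.159% lower. DESeq2 called no member promoter, with 0 to 5 of the 8 at an unadjusted p under 0.05 in a comparison where edgeR had 2 to 7. Of the calls, 4 fell on CL day 3, 1 for each of these genes. Promoter levels are CPM over all promoter sums and cannot be compared with distal levels, and whether the numbers of promoter and distal calls differ was not tested. The median log2 fold change of the 8 promoters was 0.60 at CL day 3, against -0.0095 over all genes. Scaled like the peaks, the test made 5 of the 7 calls, and over all promoters the share of calls that were higher went from 68.4 to 32.7% at CL day 3, 63.0 to 41.7% at cold day 7, 59.3 to 38.5% at cold day 3, 52.3 to 21.3% at CL day 7 and 42.9 to 26.7% at CL day 1.

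The Elovl6 promoter had 98.8, 63.5 and 78.8 CPM at day 0, 219, 169 and 124 CPM at cold day 7, 185, 178 and 155 CPM at CL day 3 and 174, 136 and 101 CPM at CL day 7. All of these mice lay above all day 0 mice, and the log2 fold change was 0.99 ± 0.23 (adjusted p = 0.014), 1.05 ± 0.20 (adjusted p = 0.00019) and 0.92 ± 0.21 (adjusted p = 0.0055). The Fasn promoter had 60.4, 27.2 and 57.6 CPM at day 0, 126, 85.2 and 73.5 CPM at cold day 3 and 82.1, 117 and 92.0 CPM at CL day 3, with log2 fold changes of 1.05 ± 0.25 (adjusted p = 0.024) and 0.98 ± 0.25 (adjusted p = 0.02). So for Fasn the promoter sum was called where the distal sums were not, although the difference between them was not called. The Fasn promoter sum could pass the filter on low counts through treated groups, since mouse 2 of day 0 had 27.2 CPM. Its calls are description only. The only Fasn promoter peak past the filter lay over a coding exon, with its centre 2.13 kb inside the gene. The rise is therefore not shown at the Fasn start itself. The Scd1 promoter rose from 269, 372 and 376 CPM at day 0 to 513, 638 and 423 CPM at CL day 3 (log2 0.64 ± 0.16, adjusted p = 0.013), and the Acly promoter from 165, 145 and 139 CPM to 274, 253 and 190 CPM (0.64 ± 0.17, adjusted p = 0.022). The Acly and Scd1 calls were lost on the scale of the peak table. Without mouse 3 of day 0, 1 of the 7 calls was left; without mouse 1 or mouse 2 of day 0, 3 were left, and without mouse 2 of CL day 3, 4 were.

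The Acaca promoter went the other way from its distal peaks, with values that passed no test alone. It had 65.9, 99.8 and 84.9 CPM at day 0 and 54.7, 56.1 and 61.3 CPM at CL day 3, a log2 fold change of -0.50, and all 6 log2 fold changes were below 0. The difference between the promoter and the distal response of the same gene was tested within mice. For Acaca it was -1.70 ± 0.27 at CL day 3 (adjusted p = 5.9e-06), -1.47 ± 0.31 at cold day 7 (adjusted p = 0.013) and -1.12 ± 0.27 at CL day 7 (adjusted p = 0.018), where 0.922%, 0.0892% and 1.09% of genes were called in either direction. For Scd1 the promoter exceeded the distal response at CL day 3 by 0.44 ± 0.12 (adjusted p = 0.042), a call that was lost in 10 of the fits that left out a mouse. No other member was called against day 0. The single Acaca promoter peak (chr11:84128890-84130168) also covers the start of Tada2a, an adaptor of histone acetyltransferase complexes, and a further protein-coding start of Acaca lies at a peak 50.2 kb downstream (chr11:84179103-84180584). That peak had 49.7, 26.3 and 48.7 CPM at day 0 and 57.4, 59.7 and 45.3 CPM at CL day 3, and was not called.

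**Figure D2:**
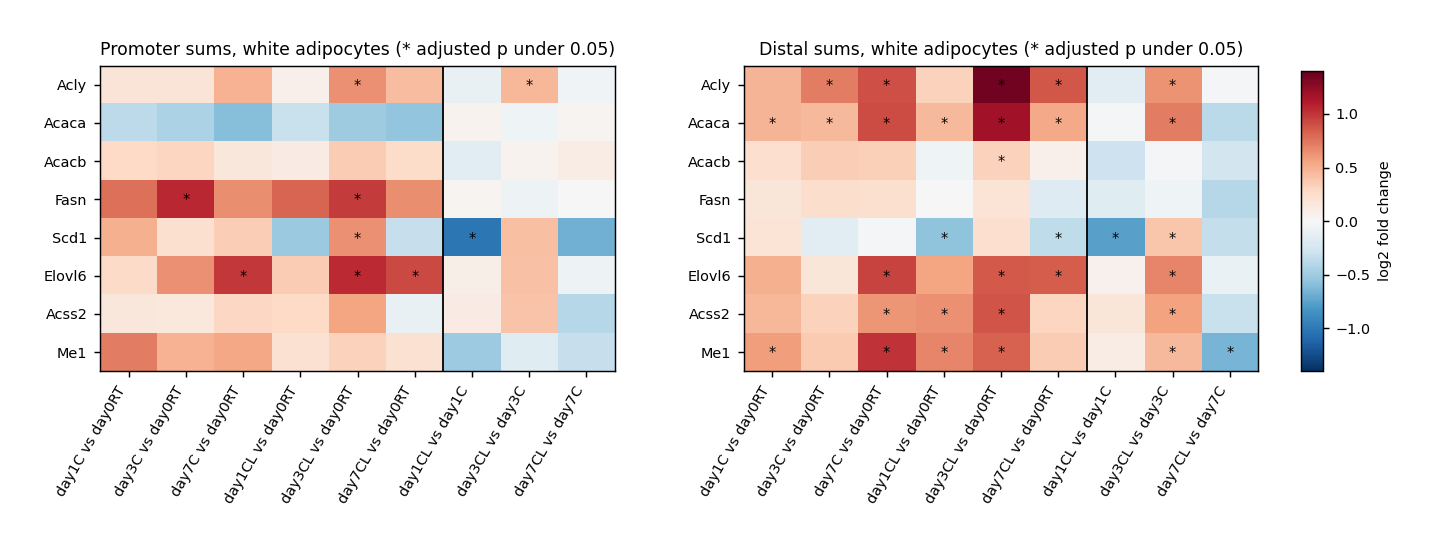
Log2 fold changes (colour scale) of the promoter sums and the distal sums of the 8 genes in white adipocytes, for 6 comparisons with day 0 and 3 of CL with cold; asterisks mark adjusted p under 0.05. The Acaca cells differ in sign between both panels, -0.50 for the promoter and 1.18 for the distal peaks at CL day 3.

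Single peaks showed where in each window the change lay. In white adipocytes 135 of the 286 peaks passed the filter on low counts (15 promoter and 120 distal) and 151 did not. Of the 135, 47 reached the level of the filter (13.5 CPM) in every day 0 mouse. Over all 32541 tested peaks 15264 did (46.9%), a larger share than among the 135. The other member peaks could pass through the groups where they were high. The counts and tests below, also those by gene, therefore describe the tested peaks and not all 286. An excess of higher calls over the shares of all peaks can follow in part from this filter. Counts for the 47 alone are not given, so the excess is description only. In 810 tests against day 0, 84 were called higher and 9 lower, where over all 32541 peaks 0.868% and 0.633% were. At CL day 3, 44 peaks were higher and 1 lower, where 2.11% and 1.19% of all peaks were (3.29% in either direction). CL day 7 gave 13 higher and 3 lower, beside 1.56% and 1.13% of all peaks (2.69%), and CL day 1 gave 4 and 4, beside 0.618% and 0.759% (1.38%). With cold, day 7 gave 11 higher and none lower, beside 0.329% and 0.197% (0.525%), day 3 gave 9 and 1, beside 0.538% and 0.439% (0.977%), and day 1 gave 3 and none, beside 0.0553% and 0.086% (0.141%). By gene, 13 of 16 tested peaks were higher in at least 1 comparison for Acly, 17 of 26 for Acaca, 5 of 20 for Scd1, 3 of 9 for Acss2, 3 of 14 for Me1, 2 of 9 for Elovl6, 2 of 17 for Fasn and 2 of 24 for Acacb. All 5 peaks that were lower in a comparison belonged to Scd1, and 84 tested peaks were never called.

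These counts depended on the test and on single mice. DESeq2 called 2 member peaks at CL day 3 and 0 in each of the other 5 comparisons, with 58 members at an unadjusted p under 0.05 at CL day 3 and 17 to 42 in the others, against 67 and 29 to 53 in edgeR. Without mouse 2 of CL day 3, 15 peaks in place of 45 were called there, and without mouse 3 of day 0, 28 were. The cold day 7 count went from 11 to 2 without mouse 1 of that group and to 3 without mouse 3 of day 0. The CL day 7 count went from 16 to 4 without mouse 1 of that group or mouse 3 of day 0, the cold day 3 count from 10 to 2 without mouse 3 of day 0, the cold day 1 count from 3 to 0 without mouse 2 of that group, and the CL day 1 count from 8 to 0 without mouse 3 of that group.

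Of the 135 member peaks, 2 were called higher in all 6 comparisons, as were 4 of all 32541 peaks (0.0123%), these 2 included. The Acly peak shown above (chr11:100504918-100506339, over a coding exon, 22.4 kb downstream of the start) had 0, 2.92 and 5.84 CPM at day 0 (CPM over all peak counts). It had 13.1, 45.8 and 16.8 CPM at cold day 1, 36.8, 25.3 and 16.1 CPM at cold day 3 and 48.4, 18.6 and 20.8 CPM at cold day 7. With CL it had 14.2, 15.4 and 24.5 CPM on day 1, 91.4, 63.1 and 32.1 CPM on day 3 and 43.8, 32.2 and 19.2 CPM on day 7. Every treated mouse lay above every day 0 mouse, and the fitted log2 fold change ran from 2.46 ± 0.51 at cold day 1 to 3.83 ± 0.36 at CL day 3. The 14.2 CPM of mouse 1 of CL day 1 come from the library of 23 nuclei and 44198 counts. That value rests on very few nuclei, and so does the lack of overlap for this mouse. This Acly peak lay below the filter level of 13.5 CPM in all day 0 mice. It passed the filter through treated groups, so its calls are description only. The Fasn peak (chr11:120803546-120806168, over the UTR at the end of the gene, 19.7 kb from its start) was the most accessible distal peak of that gene. It had 40.2, 35.1 and 36.0 CPM at day 0 and 46.7 to 131 CPM in the treated mice, again without overlap. Its log2 fold change was 1.42 ± 0.18 at CL day 3 (adjusted p = 2.8e-10) and 0.76 ± 0.20 to 1.20 ± 0.23 elsewhere, while the summed distal peaks of Fasn were not called.

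Other Acly peaks were at or near 0 at day 0 and passed the filter through treated groups, so they are described with no test. The peak at chr11:100487287-100487527 (intron, 40.6 kb downstream) had no count in the day 0 mice. At CL day 3 it had 23.4, 18.8 and 8.76 CPM, at least 9.83-fold above a floor of 3 counts over the day 0 group, and at cold day 7 it was at least 5.47-fold above it. The peak at chr11:100475010-100475536, just beyond the end of Acly, had 0, 2.92 and 0.974 CPM at day 0 and 34, 31.1 and 15.6 CPM at CL day 3. These are 2 and 147 counts, a ratio of 24.3 with an exact 95% interval of 6.62 to 203 that covers counting error only. The promoter peak of Acly (chr11:100527066-100528695) had 57.4, 46.8 and 44.8 CPM at day 0 and 85.0, 76.6 and 60.3 CPM at CL day 3, a log2 fold change of 0.55 ± 0.17 (adjusted p = 0.043).

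At Acaca the strongest peaks lay far into the gene or beyond it. The intronic peak at chr11:84394895-84395413, 265 kb from the start, had 1.91, 5.85 and 5.84 CPM at day 0 and 25.5, 33.6 and 19 CPM at CL day 3 (log2 2.50 ± 0.39). The peak at chr11:84405484-84406159, beyond the gene's end, had 13.4, 11.7 and 6.82 CPM at day 0 and 14.9, 43.3 and 30.2 CPM at CL day 3 (1.90 ± 0.31). The groups did not overlap at either. Neither peak reached the filter level of 13.5 CPM in every day 0 mouse. Each could pass the filter through treated groups, so these values are description only.

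At the other enzymes few peaks were called. The Elovl6 intron peak shown above (chr3:129591296-129592326) had 7.65, 8.77 and 3.90 CPM at day 0, 42.7, 20.5 and 20.0 CPM at CL day 1 and 17, 21 and 16.1 CPM at CL day 3. The 42.7 CPM come from the library of 23 nuclei and rest on very few of them. This Elovl6 peak was called at cold day 7 (log2 1.97 ± 0.42) and on all CL days (1.68 ± 0.39 to 1.84 ± 0.46). Acss2 had a called intron peak (chr2:155540709-155541536) with 7.65, 8.77 and 11.7 CPM at day 0 and 25.5, 33.9 and 25.8 CPM at CL day 3 (1.58 ± 0.30). The Me1 intron peak at chr9:86624135-86625230 had 5.74, 5.85 and 7.79 CPM at day 0 and 8.50, 30.8 and 14.1 CPM at CL day 3 (1.71 ± 0.37). These Elovl6, Acss2 and Me1 peaks lay below the filter level of 13.5 CPM in all day 0 mice. They passed the filter through treated groups, so their calls are description only. The Fasn promoter peak shown above, over a coding exon, was called only at cold day 3 (log2 1.03 ± 0.28). It had 19.1, 5.85 and 14.6 CPM at day 0 against 34.3, 21.1 and 18.1 CPM, groups that overlap. It did not reach the filter level in every day 0 mouse, so this call is description as well.

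**Figure D3:**
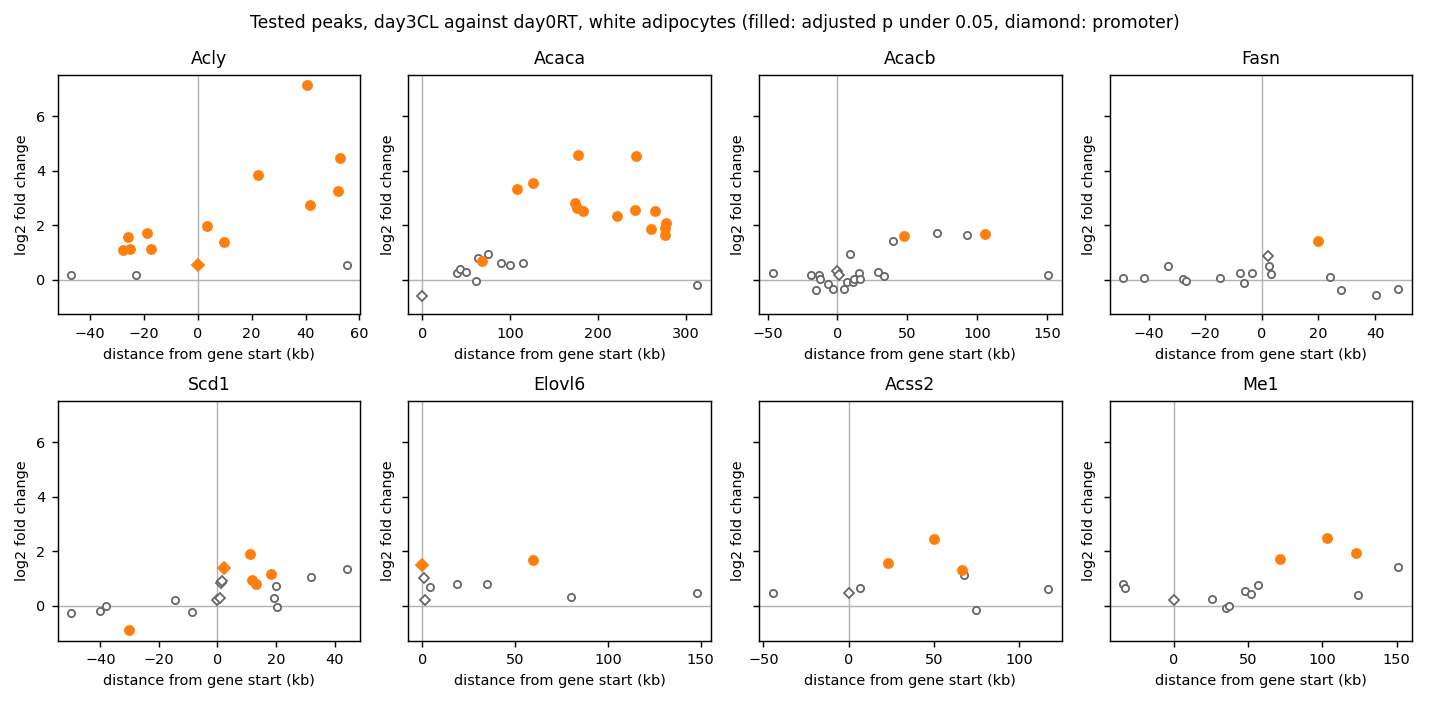
Log2 fold change at CL day 3 against day 0 in white adipocytes (y axis) for the 135 tested peaks by distance from the gene start in kb (x axis), a panel per gene; diamonds are promoter peaks and filled symbols passed adjusted p under 0.05. The Acly point with a fitted value of 4.46 rests on 2 counts at day 0. In the Scd1 panel the called peak upstream at -30.3 kb is below 0 while those downstream are above it.

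Scd1 carried peaks that moved in opposite directions. The peak 30.3 kb upstream shown above (chr19:44437746-44438606) had 32.5, 58.5 and 35.1 CPM at day 0, 0, 10.2 and 15.6 CPM at CL day 1, 19.1, 21 and 21.4 CPM at CL day 3 and 18.1, 14.1 and 12.8 CPM at CL day 7. All CL mice lay below all day 0 mice, with log2 fold changes of -1.43 ± 0.32, -0.87 ± 0.22 and -1.23 ± 0.24, and cold day 3 was called as well (-0.89 ± 0.23). The intronic promoter peak (chr19:44405409-44405897) had 13.4, 5.85 and 15.6 CPM at day 0, 32.7, 38.9 and 33.6 CPM at cold day 1 and 23.4, 42.4 and 24.8 CPM at CL day 3, and rose by log2 1.37 ± 0.32 and 1.38 ± 0.27. It did not reach the filter level of 13.5 CPM in every day 0 mouse, so these rises are description only. The peak over the end of the gene (chr19:44393866-44395644, UTR) had 38.3, 46.8 and 67.2 CPM at day 0. It had 0, 40.9 and 25.9 CPM at CL day 1, 93.5, 111 and 74.4 CPM at CL day 3 and 33.7, 22.1 and 32.1 CPM at CL day 7, so it fell, rose and fell (-1.05 ± 0.27, 0.78 ± 0.16 and -0.84 ± 0.20).

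**Figure D4:**
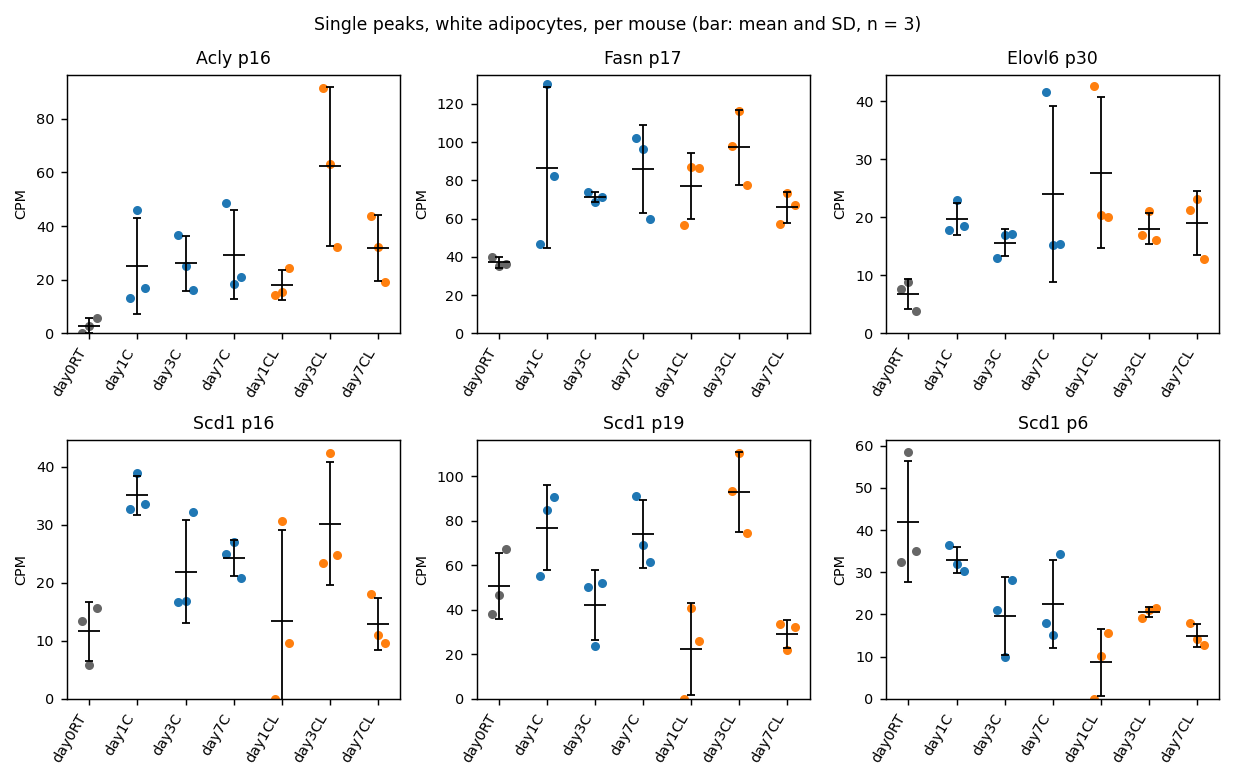
Levels of 6 named peaks in white adipocytes in CPM over all peak counts (y axis, from 0) by group (x axis); points are mice and bars the mean and SD of 3 mice. The Acly p16 and Fasn p17 peaks (Acly 22.4 kb and Fasn 19.7 kb from the start) have no treated mouse as low as the day 0 mice, and Scd1 p6 (30.3 kb upstream) has every CL mouse below them. Mouse 1 of CL day 1 is the library of 23 nuclei, so its points rest on very few nuclei.

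CL was compared with cold at each day in white adipocytes, which asks whether the stimuli differ. On day 3 CL exceeded cold at the distal peaks of 6 of the 8 genes, on day 1 Scd1 was lower with CL, and on day 7 Me1 was lower with CL; 2.64%, 1.69% and 0.0506% of all genes were called on these days. The day 3 differences were 0.72 ± 0.10 for Acaca (adjusted p = 1.2e-06), 0.69 ± 0.12 for Elovl6, 0.63 ± 0.13 for Acly, 0.56 ± 0.10 for Acss2, 0.45 ± 0.11 for Me1 and 0.39 ± 0.10 for Scd1, with the values by mouse given above for both groups of Acaca and Acly. All CL mice lay above all cold mice for Acaca, Acly, Elovl6, Acss2 and Me1, while for Scd1 the groups overlapped. DESeq2 called 1 of these 6, and without mouse 2 of CL day 3 edgeR called 2. Acacb and Fasn differed by -0.01 ± 0.09 and -0.06 ± 0.09.

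On day 1 the Scd1 promoter had 454, 547 and 473 CPM with cold and 217, 409 and 209 CPM with CL, a difference of -1.01 ± 0.21 (adjusted p = 0.0057), where 0.145% of promoters were called. Its distal sums were 228, 287 and 211 CPM with cold and 95.1, 168 and 137 CPM with CL (-0.75 ± 0.13, adjusted p = 0.0006). The groups did not overlap in either. Both calls were lost without mouse 3 of CL day 1, which leaves mice of 23 and 63 nuclei. The B cell markers above were also low in this group, and the Scd1 distal sum was as high in B cells as in white adipocytes within their SDs. Any part of B cell signal in the difference was not tested. On day 3 the Acly promoter was called (0.46 ± 0.12, adjusted p = 0.029), where 0.666% of promoters were. On day 7 the Me1 distal sums were 287, 160 and 173 CPM with cold and 141, 129 and 116 CPM with CL (-0.65 ± 0.12, adjusted p = 0.0061), a call lost without mouse 1 of cold day 7. All 8 distal sums were lower with CL on day 7, from -0.65 to -0.03.

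Among single peaks CL exceeded cold at 30 and was below it at 2 on day 3 (1.34% and 0.879% of all peaks, 2.22% in either direction), and was below it at 6 on day 1 (0.366%) and 1 on day 7 (0.0123%). The day 7 peak was the one over the end of Scd1, with 91.3, 69.2 and 61.6 CPM after cold and 33.7, 22.1 and 32.1 CPM after CL (log2 -1.23 ± 0.18, adjusted p = 3.4e-07). On day 3 the same peak had 50.4, 23.9 and 52.2 CPM after cold and was higher with CL by 1.02 ± 0.12 (adjusted p = 3.8e-12). DESeq2 called 3 peaks on day 3 and none on days 1 and 7, with 12 and 17 members at an unadjusted p under 0.05 in DESeq2 and 17 and 31 in edgeR. Without mouse 2 of CL day 3, 8 peaks were called on day 3, without mouse 1 of cold day 3, 16 were, and the 6 calls of day 1 went to 0 without mouse 3 of CL day 1 and to 1 without mouse 1 of cold day 1. The promoter differed from the distal response between CL and cold on day 3 for Acaca (-0.78 ± 0.21, adjusted p = 0.043) and Me1 (-0.65 ± 0.16, adjusted p = 0.022), where 0.476% of genes were called.

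In beige adipocytes the sums were shallower and few comparisons passed. Of the distal sums, Acly rose at CL day 3 from 123, 128 and 145 CPM to 262, 280 and 234 CPM (log2 1.00 ± 0.22, adjusted p = 0.0075), where 0.345% of 14490 genes were called. Fasn was called lower at CL day 1, which rests on a single mouse (119 CPM against 198, 340 and 218 CPM). The Scd1 promoter was called higher at CL day 3, from 196, 0 and 202 CPM to 469, 634 and 511 CPM (1.81 ± 0.40, adjusted p = 0.015, with 0.0631% of 3172 promoters called). The 0 is mouse 2 of day 0, a library of 12 nuclei and 19550 counts, and with libraries of at least 20 nuclei the call was lost (1.55, adjusted p = 0.20), as was that of Fasn (-0.79, adjusted p = 0.13), while Acly kept it (1.00, adjusted p = 0.028). The Scd1 call was also lost without any of the 3 day 0 mice or mouse 2 of CL day 3 (adjusted p = 0.095 to 0.36). DESeq2 called none of these 3. A single library could carry a sum past the filter on low counts in beige, because CL day 1 kept a single mouse. The Scd1 promoter could thus pass through libraries where it was high, so its beige calls are description only. Scaled like the peaks, 13 distal calls of members were higher in place of 1 and none lower in place of 1, and of all genes called at CL day 3 99.7% in place of 58.0% were higher, with a median log2 fold change over all genes of 0.47.

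CL exceeded cold on day 3 in beige adipocytes at the Scd1 promoter, with 108, 85.5 and 55.8 CPM after cold and a difference of 2.53 ± 0.29 (adjusted p = 1.9e-12, 0.284% of promoters called). This promoter could pass the filter through libraries where it was high, so the call is description only. The distal sums differed for Acly (127, 142 and 115 CPM after cold, 1.05 ± 0.14), Scd1 (111, 138 and 83.1 CPM after cold against 203, 244 and 220 CPM after CL, 1.05 ± 0.15) and Acaca (238, 217 and 214 CPM against 321, 454 and 360 CPM, 0.79 ± 0.12). The groups did not overlap in these 4. Over all genes 2.22% of distal sums were called, and DESeq2 called 3 member sums as well. Markers in the same beige sums moved with these groups. At CL day 3 the summed beige list was 409 CPM (393 to 438), against 542 CPM (504 to 610) at cold day 3 and 502 CPM (455 to 563) at day 0. Between CL and cold on day 3 the endothelial list (68.6 CPM, 65.5 to 73.6, against 132 CPM, 109 to 161) was lower without overlap, and the smooth muscle list (179 CPM, 167 to 188, against 108 CPM, 84.0 to 134), the adipocyte list (1642 CPM, 1569 to 1711, against 1401 CPM, 1344 to 1443) and the B cell list (75.9 CPM, 66.6 to 87.4, against 55.7 CPM, 53.8 to 58.8) were higher without overlap. Their part in the results was not tested. On day 7 the beige list was again lower with CL, 416 CPM (398 to 426) against 495 CPM (461 to 537). On day 7 Acaca was lower with CL, 251, 207 and 227 CPM against 376, 373 and 351 CPM (-0.64 ± 0.10, adjusted p = 1e-05, with 0.897% of genes called). Single beige peaks were called for Acly, the peak 22.4 kb from the start, and for the peak over the end of Scd1 at CL day 3 against day 0 (0.13% of 4633 peaks), and for these and the Scd1 start peak against cold on day 3 (0.237%); DESeq2 called none, with 3 and 5 members at an unadjusted p under 0.05. Of 286 peaks 22 passed the filter in beige, where a single library was enough. The called peaks could pass through the libraries where they were high, so the calls of single beige peaks are description only. The main fit did not pair the white and beige sums of a mouse. It called the response different between beige and white for no member (edgeR interaction, 0 promoter and 0 distal calls over 6 comparisons, where up to 0.0733% of genes were called). Up to 3 members had an unadjusted p under 0.05 in a comparison. With the mouse as a block, a distal response was called lower in beige than in white. The lack of calls in the main fit does not show that the responses were alike.

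Beige and white levels are described with no test, since the annotation was drawn from these same peaks. Elovl6 stood out, with a distal log2 difference of 0.90 ± 0.07, higher in beige in 19 of 19 mice, and a promoter difference of 0.77 ± 0.10, higher in 18. The intron peak of Elovl6 shown above differed by 1.62 ± 0.13. Distal sums of Acacb and Acly were each higher in beige by 0.33, in 15 and 17 mice, and those of Acss2 and Acaca by 0.24 and 0.23. Scd1 and Me1 were lower in beige, by -0.29 ± 0.06 and -0.31 ± 0.07 at distal peaks, with 2 and 1 mice the other way, and Fasn differed by -0.06 with 9 of 19 mice higher in beige.

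Across the 12 annotated cell types the levels of the 8 genes did not share an order. The type annotated VSMC went against that name: it had the highest level of all types at the skeletal muscle genes Ttn (422 CPM), Ckm (252 CPM), Acta1 (86.2 CPM) and Myh4 (50.8 CPM), and the lowest at the smooth muscle actin Acta2 (6.65 CPM), with 65.3 CPM at Myh11 and 10.9 CPM at Tagln. The values are CPM over all peak counts, as mean ± SD over 10 to 21 mice, and the SD ranges of most neighbours in the order overlapped. Distal Acaca was 582 ± 159 CPM in the beige annotation and 475 ± 144 CPM in the white one, both above the type annotated VSMC at 174 ± 55.8 CPM without overlap of the SD ranges. Distal Fasn was likewise 391 ± 121 and 375 ± 60.3 CPM in these and 184 ± 67.9 CPM in VSMC, the next type. Scd1 distal peaks were as high in B cells (457 ± 49.0 CPM) as in white adipocytes (419 ± 97.0 CPM) within their SDs. The Acly promoter had its highest mean in B cells (79.2 ± 12.5 CPM, against 55.5 ± 13.0 CPM in white adipocytes), and distal Acss2 in VSMC (245 ± 89.2 CPM, against 223 ± 49.4 CPM in beige). Distal Elovl6 was 394 ± 74.8 CPM in beige, 318 ± 49.0 CPM in CD8 T cells and 207 ± 65.1 CPM in white adipocytes. The Acacb promoter was 78.9 ± 20.1 CPM in beige, 58.7 ± 8.34 CPM in white adipocytes and at most 6.61 CPM in the progenitor, macrophage, dendritic, B cell and T cell types.

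**Figure D5:**
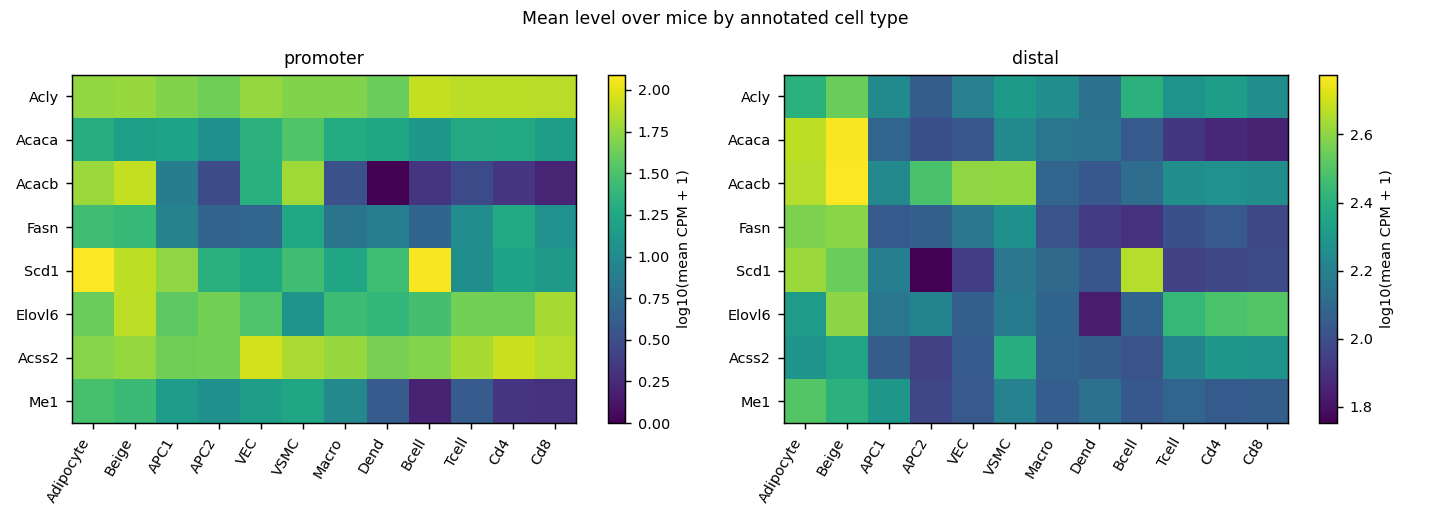
Mean level of the promoter and distal sums of the 8 genes by annotated cell type, as log10 of mean CPM plus 1 (colour scale), over 10 to 21 mice. Distal Acaca is brightest in Beige (582) and Adipocyte (475), while distal Scd1 is as bright in Bcell (457).

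Other genes of fatty acid synthesis, its supply and its control were taken as a list of 34. Their distal sums in white adipocytes were higher at CL day 3 for 8 and lower for none, where 4.33% and 3.69% of all genes were. The counts were 6 and none at cold day 7 (2.29% and 2.9% of all genes), 5 and 3 at CL day 7 (6.25% and 6.63%), 4 and none at cold day 3 (1.47% and 1.51%), 2 and none at cold day 1 (0.326% and 0.489%) and 1 and 2 at CL day 1 (2.3% and 3.06%). The median log2 fold change of the list at CL day 3 was 0.09, where that of the 8 enzymes was 0.84. Both sets were chosen with earlier results of these data known, so this contrast is description only. The desaturases Scd2 and Scd3 rose by 0.92 and 0.97 at CL day 3, the transketolase Tkt, of the pentose phosphate pathway, rose in all comparisons but CL day 1 (0.54 to 0.70), and Insig1, which holds back sterol-regulated transcription, rose at CL day 3 (0.52). Scd4 also rose (0.76), but 14 of its 27 peaks are those of Scd1. A peak near several genes counts for each of them, and sharing among the listed genes was not counted. The sums of Scd2 and Scd3 had similar log2 fold changes in every comparison (0.62 for both at cold day 7). The counts for the list are therefore not counts of independent genes. The fatty acid desaturase Fads2 fell on CL days 1 and 7 (-0.57 and -0.46). Of 28 promoters tested, Scd2 and Tkt at CL day 3 and Mlxipl at CL day 7 were called higher, where 0.646% and 0.328% of all promoters were.

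The genes whose level was most like that of each enzyme over the 21 white libraries were named as a description. The level was the sum of the peaks on the gene body and 2 kb upstream of it, not of the whole windows used above. Pearson's r of log2 CPM was taken over 4681 genes, leaving out genes that share peaks with the enzyme. Acly and Acaca were closest to each other (r = 0.95), and Tkt was among the first 3 for both (0.90 and 0.89). Me1 was closest to Acaca (0.90), then Chd7 (0.89) and Ldlrad3 (0.87), and Fasn was closest to Acaca too (0.81). The neighbours of the others were Hip1 for Acacb (0.96), Tmem179 for Scd1 (0.83), Larp1b for Elovl6 (0.86) and Mfsd12 for Acss2 (0.80). The libraries share their depth differences and the small library of CL day 1, which enter every r.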

How the data were processed

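Nuclei of iWAT were profiled by single-nucleus ATAC-seq on 4 sequencing lanes that pooled the mice. According to the submitters' processing notes the reads were handled with Bowtie2, SAMtools, MACS2 and Signac on mm10. What the authors deposited is a table of counts of 0 or 1 for each peak in each nucleus (a peak had a read there or had none) and an annotation of each nucleus to mouse, group and cell type. The count of a single peak is therefore a number of nuclei, to which a nucleus with several reads there adds 1; in a sum over peaks a nucleus adds 1 for each peak with a read.

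Counts were summed per mouse and cell type where at least 10 nuclei were present. Peaks, promoter sums and distal sums over all genes were fitted in separate tables with edgeR 4.0.16 (R 4.3.3; TMM factors, filterByExpr with a minimum count of 10, quasi-likelihood test, 7 groups in 1 fit), with Benjamini-Hochberg adjustment over all features tested in a comparison and a threshold of 0.05. Values by mouse are TMM-adjusted CPM of the table fitted. DESeq2 1.42.0, the replicate number as a block, no filter, other windows, other promoter definitions, deeper nuclei and each mouse left out were alternatives. The library size of the sums had not been fixed in the design. The sums were first fitted with the library sizes of the peak table, and the sizes of their own table were made the main choice after the calls of both had been seen, because the first scale shifted the median of all genes (in beige adipocytes by up to 0.54 on the log2 scale) and left calls one-sided; both are reported.

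The 8 genes, the gene lists and the tests were chosen with earlier results of these data known. Named peaks were all promoter peaks that passed the filter, the distal peak of highest mean, up to 3 peaks of lowest p per gene among those called against day 0, and the peak that differed most between beige and white among peaks with a mean of 20 beige counts, which none reached; not all of them are printed. Gene positions came from the annotation of GRCm38, sequences from the RefSeq copy of that assembly. Steps were tested on counts simulated for CL day 3 against day 0. The fit recovered 43% of 2-fold and 87% of 4-fold changes for peaks. It recovered 69% and 96% for promoter sums and 89% and 100% for distal sums. False calls were 6 of 136, 8 of 173 and 11 of 200, so features without a call may still have changed. Depth limits the precision. Each SE was derived from the log2 fold change and the F statistic of the fit, in which all groups share an estimate of the spread. It is not the spread of the 3 mice of either group compared. Only the deposited annotation says that these are separate mice.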

Additional observations from a re-analysis of the deposited data

Results flagged for a closer look

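A difference between CL and cold on the same day, found by a test of the difference itself, marked 15 sums for a closer look, and the share of all genes called stands beside each comparison in the report. In white adipocytes CL was lower than cold on day 1 at the Scd1 promoter (log2 -1.01) and distal peaks (-0.75). On day 3 CL was higher at the Acly promoter (0.46) and at the distal peaks of Acaca (0.72), Elovl6 (0.69), Acly (0.63), Acss2 (0.56), Me1 (0.45) and Scd1 (0.39), and on day 7 it was lower at the distal peaks of Me1 (-0.65). In beige adipocytes CL was higher on day 3 at the Scd1 promoter (2.53) and at the distal peaks of Scd1 (1.05), Acly (1.05) and Acaca (0.79), and lower on day 7 at those of Acaca (-0.64). The beige Scd1 promoter call is description only, because of the filter in beige described above. Groups of 3 mice were too small to call a single mouse an outlier, but fits without each mouse were run. Both Scd1 calls of day 1 in white adipocytes were lost without mouse 3 of CL day 1. The Me1 call of day 7 was lost without mouse 1 of cold day 7. Fewer of the white distal calls of day 3 were left without mouse 2 of CL day 3.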

How the results depend on the processing

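No called value of a gene or peak changed direction under the alternatives run. Apart from fits without a mouse, 797 values of single genes and peaks stayed on their side of the threshold and 191 lost their call, and 186 counts stayed within 1.5 times while 75 did not; the cause was not tested. Low depth, a median of 137355 counts for beige sums, limits what could be called there.

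With DESeq2, member peaks called against day 0 in white adipocytes were 2 higher and 0 lower (2 at CL day 3 and 0 in each of the other comparisons), 3 higher and 0 lower for CL against cold (3 on day 3, 0 on days 1 and 7), and 0 in beige. DESeq2 gave 11 higher and 1 lower distal calls against day 0, 1 and 1 for CL against cold, 0 promoter calls in each, and 0 calls of promoter and distal sums against day 0 in beige. With only the groups compared in a fit, 44 peaks were higher (5 at cold day 3, 5 at cold day 7, 5 at CL day 1, 25 at CL day 3, 10 at CL day 7), and 2 promoters were lower with CL than with cold. With no filter, 46 peaks were higher and 5 lower with CL than with cold (3 on day 1), 3 were called at cold day 3, and 2 promoters were lower with CL. With nuclei of at least 2000 counts, peaks called were 0 at cold day 1, 4 at cold day 3, 7 at cold day 7, 4 at CL day 1 and 1 for CL against cold on day 1, lower calls were 2 against day 0 and 4 for CL against cold, distal sums had 1 lower call, and promoters had 2 higher and 0 lower for CL against cold. With beige nuclei added to white, 135 peaks were higher (5 called at cold day 1, 40 at cold day 7, 13 at CL day 1, 4 for CL against cold on day 7), and 3 promoters were higher with CL than with cold. Without TMM, 3 peaks differed between CL and cold on day 7. Windows of 20 kb gave 0 lower distal calls against day 0 in white and in beige. Promoters from any transcript start gave 2 higher and 2 lower promoters for CL against cold, and in beige 0 lower distal sums against day 0 and 2 for CL against cold. With at least 20 nuclei a library, beige had 0 calls of peaks, of promoters and of lower distal sums. With the mouse total as library size the promoter and distal responses differed for 0 higher and 5 lower, and with the mouse as a block 1 distal response was lower in beige than in white.

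On the scale of the peak table, the first fit run (alternative added after the data were seen), the beige distal sums had 13 higher and 0 lower calls against day 0 and 0 lower for CL against cold, and the white sums had 1 lower distal call and 0 promoters higher with CL than with cold.

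Over 14614 peaks, deviations from the group means correlated with a median r of -0.0011 (-0.09 to 0.13) for mice of the same replicate number. For mice of different numbers the median r was 0.00031. Counting noise in sparse peaks draws such r toward 0, so these values cannot show that no batch was shared. The paper's reporting summary mentions 3 batches done independently, without saying which mice each held. With the replicate block, 4 peaks were called at cold day 3, 10 at CL day 7, 5 lower with CL than with cold, and 2 promoters higher with CL than with cold; the other counts stayed within 1.5 times.

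With each mouse left out in turn, member peaks in white adipocytes had 40 to 101 higher and 4 to 9 lower calls against day 0, and 8 to 42 and 2 to 10 for CL against cold. By comparison the peaks called were 0 to 4 at cold day 1, 2 to 10 at cold day 3, 2 to 17 at cold day 7, 0 to 9 at CL day 1, 15 to 56 at CL day 3 and 4 to 21 at CL day 7, and for CL against cold 0 to 6 on day 1, 8 to 44 on day 3 and 1 to 2 on day 7. Promoter sums had 1 to 8 higher calls against day 0, and 0 to 3 higher and 0 to 1 lower for CL against cold. Distal sums had 13 to 23 higher and 1 to 2 lower calls against day 0, and 2 to 6 and 1 to 3 for CL against cold. Promoter and distal responses differed for 0 to 1 higher and 1 to 3 lower against day 0, and 0 to 2 lower for CL against cold. In beige, promoters had 0 to 1 higher calls, distal sums 0 to 2 higher and 0 to 1 lower against day 0 and 1 to 2 lower for CL against cold, and peaks 0 to 2 and 0 to 3 higher calls. Where a group was left with 1 mouse, as CL day 1 was in beige, that mouse is assumed to vary like the other groups.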
